A study of Mus musculus with 19 samples.

Results

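The genes examined were 9 genes of the p53 pathway and of the cyclin-dependent kinase (CDK) inhibitor arm of cellular senescence: Cdkn1a, Cdkn1b, Cdkn2a, Cdkn2b, Cdkn2c, Trp53, Mdm2, Ccnd1 and Lmnb1. They were found by their symbols, and all 9 were among the 24537 genes of the deposited table. Their transcripts were measured by poly(A) RNA sequencing of hepatocytes, the parenchymal cells of the liver, from male WT mice of the C57BL/6J strain, with 1 library per mouse. The young group held 10 mice labelled 5 months old and the old group held 9 mice labelled 24 months old. No allele or treatment is given for either group, so age is the only labelled difference between them. Both groups were divided between 2 cull days 23 days apart. The dates in the labels put the young mice at 140 days on the first day (5 mice) and 163 days on the second (5 mice), and the old mice at 719 days (5 mice) and 742 days (4 mice). Mice are named here by their library numbers. That the libraries are separate animals rests on those numbers and titles.

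Senescence is a lasting exit from the cell cycle. The proteins encoded by Cdkn1a (p21), Cdkn1b (p27) and the INK4 genes Cdkn2a, Cdkn2b and Cdkn2c hold CDKs inactive, which keeps the retinoblastoma (RB) proteins bound to the transcription factors that drive DNA replication. The transcription factor p53, encoded by Trp53, switches on Cdkn1a after DNA damage. It also switches on Mdm2, whose product marks p53 for destruction and so closes a feedback loop. Ccnd1 encodes cyclin D1, the partner that activates the CDKs inhibited by the INK4 proteins. Lmnb1 encodes lamin B1, a protein of the nuclear lamina whose loss is widely used as a sign of senescence in culture. In the adult liver most hepatocytes are out of the cycle.

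Counts over genes ranged from 17381439 to 19583059.5 per library in young mice and from 18156240 to 20287628.5 in old mice. The 10 hepatocyte markers, such as Alb, summed to 110728 to 164281 CPM (counts divided by the scaled library total) in young libraries and 128741 to 212050 CPM in old libraries. Alb and Apoa1 carried most of this sum and rose with age, while Cps1, Tat and Hnf4a fell and 5 of the 10 did not pass. Markers of other liver cells were present too, and none of their lists held a gene at 0 in every library. The 14 macrophage markers summed to 119 to 544 CPM in young and 81.8 to 4647 CPM in old libraries. All 14 rose with age by edgeR, and 12 by DESeq2 and 12 by limma-voom. The 12 stellate cell markers summed to 51.1 to 136 CPM in young and 145 to 512 CPM in old libraries, and all 12 rose. Of the 12 endothelial markers 8 rose, with sums of 181 to 331 CPM in young and 190 to 609 CPM in old libraries. T and NK cell, B cell, neutrophil and cholangiocyte markers were mostly too low to test. The 40 tested markers of macrophages, endothelial, stellate, T and NK and B cells were averaged as an other-cell score. This mean log2 CPM was 2.33 to 3.87 in young and 2.62 to 5.91 in old libraries, with the highest value in old mouse 1187. In bulk RNA of this kind, fewer cells of a type and less RNA per cell cannot be told apart. Young mice 1184, 1186 and 1188 and old mouse 1187 stood apart from their groups in earlier results of these data, so the fits without them are given where they change a call.

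Cdkn2a and Cdkn1a show how the table's rows relate to the start sites of these genes, and their start regions are printed for that reason. Cdkn2a lies on the minus strand of chromosome 4 (mm10, also named GRCm38) and has a pair of promoters. The upstream one starts the Arf transcript, whose product stabilises p53, and the downstream one starts the Ink4a transcript, whose product p16 inhibits CDKs. The table's single Cdkn2a row spans chr4:89274473-89282192 and carries the Ink4a transcript. In the GENCODE M21 annotation the first exon of Arf, chr4:89294334-89294653, lies outside that interval. The other exons (chr4:89276645-89276985 and the one after it) are shared by both transcripts, so a count in this row can come from either. The windows below run from 250 bases before to 50 bases after the RefSeq start (GRCm38.p6), read 5′ to 3′ on the gene's strand. Capitals mark GGGCGG in the Cdkn2a windows and ACATGT in the Cdkn1a window.
Cdkn2a, Arf start, chr4:89294570-89294869, minus strand: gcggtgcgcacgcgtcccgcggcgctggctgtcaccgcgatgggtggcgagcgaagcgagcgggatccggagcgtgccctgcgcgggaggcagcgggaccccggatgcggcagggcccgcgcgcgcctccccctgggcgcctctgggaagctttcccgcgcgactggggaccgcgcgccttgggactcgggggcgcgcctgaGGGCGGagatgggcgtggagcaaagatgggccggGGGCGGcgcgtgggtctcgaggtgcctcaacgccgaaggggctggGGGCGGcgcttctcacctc
Cdkn2a, Ink4a start, chr4:89282143-89282442, minus strand: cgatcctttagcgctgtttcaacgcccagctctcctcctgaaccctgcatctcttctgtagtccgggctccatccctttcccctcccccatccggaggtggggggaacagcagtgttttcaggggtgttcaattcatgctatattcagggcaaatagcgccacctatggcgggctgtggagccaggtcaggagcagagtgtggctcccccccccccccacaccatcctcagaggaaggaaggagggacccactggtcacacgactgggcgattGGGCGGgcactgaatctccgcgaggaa
Cdkn1a, upstream start, chr17:29090729-29091028, plus strand: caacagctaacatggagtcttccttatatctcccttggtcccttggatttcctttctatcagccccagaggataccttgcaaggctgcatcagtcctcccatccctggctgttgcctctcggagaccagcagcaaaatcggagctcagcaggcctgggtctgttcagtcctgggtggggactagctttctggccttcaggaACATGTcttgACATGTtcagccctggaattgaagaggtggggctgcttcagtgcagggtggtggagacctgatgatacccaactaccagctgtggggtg
The Arf window was 77% G and C with 3 copies of GGGCGG, and the Ink4a window was 60.3% G and C with 1 copy. The median over all 32851 RefSeq windows was 52.7%. GGGCGG, searched on both strands, was present at least once in 35.7% of the windows. The Cdkn1a window held ACATGT 2 times, a palindrome that can form the centre of a p53 half-site, against 0.329% of windows with 2 or more copies. It also held 2 matches to the p53 half-site, 1 over the first ACATGT copy and 1 unmarked, upstream of both copies. Of all windows, 0.359% held 2 or more such matches. The table's Cdkn1a row starts 2790 bases downstream, at a start site whose own window held neither motif. Among the other members with a window, Mdm2 and Trp53 each held 1 match to the half-site and Cdkn1b, Cdkn2b and Cdkn2c none. A window was found for 7 of the 9 genes, not for Ccnd1 or Lmnb1. A match of letters is a description of the window, not a binding site.

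Levels of different genes were compared per length, as CPM per kilobase of the row's transcript (mean ± SD, n = 19 libraries). Trp53 was highest at 9.33 ± 1.59, followed by Cdkn1a at 8.88 ± 4.34, Ccnd1 at 7.74 ± 3.60, Mdm2 at 7.39 ± 0.870 and Cdkn1b at 6.03 ± 0.596. Each of the first 3 differed from the next by less than the larger SD of the pair, and Mdm2 lay above Cdkn1b by more than either SD. A gap separated them from Cdkn2c at 1.42 ± 0.504 and Lmnb1 at 1.403 ± 0.528, which did not differ beyond their spread. Cdkn2b at 0.228 ± 0.133 and Cdkn2a at 0.217 ± 0.277 were lowest. The order of the means was not the same at both ages. In young mice it ran Trp53 (8.52), Mdm2 (7.42), Cdkn1a (7.13), Ccnd1 (6.45) and Cdkn1b (5.96), and in old mice Cdkn1a (10.8), Trp53 (10.2), Ccnd1 (9.18), Mdm2 (7.35) and Cdkn1b (6.11). At the low end, Cdkn2a was below Cdkn2b in young mice (0.0154 against 0.184) and above it in old mice (0.440 against 0.277). No change of order was tested. The SD of Cdkn1a was large against its mean, whereas Cdkn1b and Mdm2 varied little between mice.

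Cdkn2a was the member whose age groups did not overlap. Its deposited counts were 0 in 7 of the 10 young libraries and 0.5 to 1 in the other 3, for a sum of 2.5. In old mice the counts were 12 in mouse 1181, 5 in 1183, 9 in 1185, 12 in 1187, 4 in 1189, 4 in 1236, 2 in 1238, 5 in 1240 and 13.5 in 1242, for a sum of 66.5. All 9 old libraries lay above all 10 young libraries, and 8 of the 9 old libraries held at least 3 counts, the floor that was set for low counts. Of the 6223 genes that had a count but did not pass the count filter, 0.482% showed every old library above every young one. This needs a count in every old library, so genes counted in fewer of them could not show it. The share among genes with about as many counts as Cdkn2a was not computed. The means were 0.0130 ± 0.0221 CPM over the 10 young mice and 0.372 ± 0.214 CPM over the 9 old ones (both SD), a difference of 0.359 CPM. The exact two-sided permutation p, relabelling mice within cull days, was 3.15e-05, the smallest that the 31752 relabellings allow. That the counts separated was known before this test was run. From the summed whole counts, 67 in old against 2 in young, the ratio of rates was 35.4, with a 95% interval of 9.42 to 298 that covers counting error only. Few counts lie behind the size of this ratio. On the first cull day alone the difference was 0.401 CPM and on the second 0.305 CPM. Without mouse 1187 it was 0.340 CPM, and without young mice 1184, 1186 and 1188 it was 0.361 CPM. The old mouse with the most Cdkn2a, 1242, had an other-cell score of 4.60, and the one with the least, 1238, had 3.90. By score, old mouse 1183 was lowest of the old mice at 2.62, with 5 counts, and 1187 was highest at 5.91, with 12 counts. Young mouse 1184, the highest of the young mice at 3.87, had 1 count. Other-cell markers rose with age in the same libraries, and their part in these counts was not tested.

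Cdkn2b encodes p15 and is the neighbour of Cdkn2a on the same strand (chr4:89306289-89311032). Its counts were 0.5 to 9.5 with a median of 4.5 in young libraries and 3 to 13 with a median of 8 in old libraries. The groups overlapped: 2 old libraries lay above all young ones and 3 young libraries below all old ones. The difference of 0.129 CPM did not pass (exact permutation p = 0.140). The gene also shares its interval with Gm12610 on the opposite strand, which had 0 to 1 counts. Cdkn2c, which encodes p18 (chr4:109660876-109666756), was 1.79 CPM at its lowest, 3.47 at its median and 4.08 at its highest in young mice. In old mice the lowest was 1.45 CPM, the median 2.21 and the highest 5.60. Most old libraries lay in the lower part of the young range, but the highest library of all was old mouse 1187. The log2 fold change of old against young was -0.34 (SE 0.218, edgeR adjusted p = 0.244). Without mouse 1187 it was -0.57 and passed (edgeR adjusted p = 0.0168). It also passed with limma-voom, at -0.57 (adjusted p = 0.0165), and with the other-cell score, at -0.87 (edgeR adjusted p = 0.00969). Within cull days it was -0.19 on the first and -0.52 on the second, and neither passed.

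**Figure D1:**
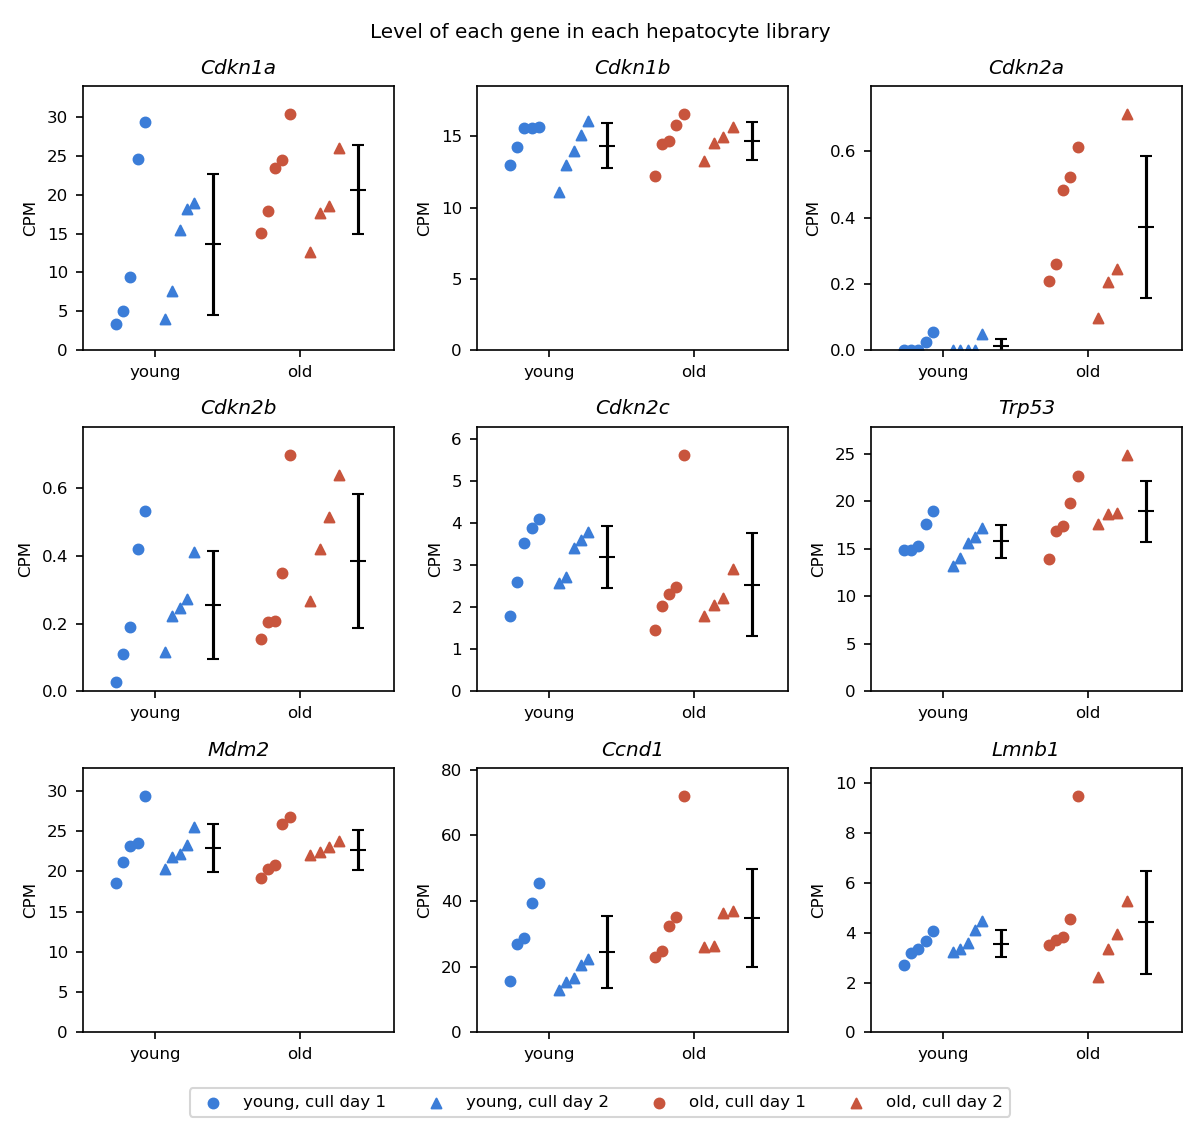
Level of each of the 9 genes in CPM (vertical axes, from 0) in each library, by age and cull day; bars to the right of each group give the mean and SD of its 10 young or 9 old mice. For Cdkn2a all 9 old mice sit above all 10 young mice, for the other genes the groups overlap, and old mouse 1187 is the highest point for Cdkn2c, Ccnd1 and Lmnb1.

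Cdkn1a, the gene of p21 (chr17:29093769-29100722), was more spread among young mice than among old mice, a difference in spread that was not tested. The lowest, median and highest young values were 3.37, 12.5 and 29.3 CPM. The old values were 12.6, 18.5 and 30.3 CPM. The groups overlapped: 5 of the 10 young mice lay below every old mouse, while 1 old mouse lay above every young one. The 2 highest young values, 24.5 CPM in mouse 1184 and 29.3 CPM in mouse 1186, both came from the first cull day. Means were 13.6 ± 9.07 CPM over the 10 young mice and 20.6 ± 5.70 CPM over the 9 old ones (both SD). The log2 fold change was 0.59 (SE 0.344) and did not pass (edgeR adjusted p = 0.198), and it was 0.63 among mice of the first cull day and 0.55 among those of the second. Without young mice 1184, 1186 and 1188 it was 1.16 and passed (edgeR adjusted p = 0.0336). With limma-voom and sample weights it was 0.97 and passed (adjusted p = 0.0285), and after adjustment for the other-cell score it was 0.13 (edgeR adjusted p = 0.850).

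Cdkn1b, the gene of p27 (chr6:134920401-134925525), was among the steadiest members. Young values had a lowest, median and highest of 11.1, 14.6 and 16.1 CPM, and old values of 12.2, 14.7 and 16.5 CPM. The groups lay over each other, and the log2 fold change was 0.032 (SE 0.0721, edgeR adjusted p = 0.762). The 3 other CDK inhibitors listed gave no call: Cdkn1c had a log2 fold change of 0.37 and Cdkn2d of 0.15, neither past the test, and Cdkn3 was too low to test. The count of calls in this list was 0 of 2 tested, with 0 at an unadjusted p under 0.05 and 0 by DESeq2 and limma-voom. Over all genes 30.9% were called by edgeR and 42.3% had an unadjusted p under 0.05.

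Trp53, the gene of p53 (chr11:69580359-69591873), was the only member that passed the edgeR test across all genes. In young mice the lowest, median and highest values were 13.2, 15.4 and 19.03 CPM. In old mice they were 14.0, 18.6 and 24.8 CPM. The groups overlapped, with 3 old mice above every young mouse and 1 young mouse below every old one. Means were 15.8 ± 1.74 CPM over the 10 young mice and 18.97 ± 3.21 CPM over the 9 old ones (both SD). Trp53 rose by 0.26 on the log2 scale (SE 0.0933, edgeR adjusted p = 0.0375). The call was close to the threshold: it held in 7 of the 19 fits that left out a mouse each, those without 1181, 1183, 1185, 1186, 1188, 1238 or 1243, with adjusted p between 0.0125 and 0.0855 over all 19. Without mouse 1187 it was 0.22 and did not pass (edgeR adjusted p = 0.0825). It was 0.15 on the first cull day, where it did not pass, and 0.39 on the second, where it did, and with the other-cell score it was 0.17 (edgeR adjusted p = 0.370).

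Mdm2, the p53 target and inhibitor (chr10:117688875-117710758), showed no difference past the test. Young values had a lowest, median and highest of 18.6, 22.7 and 29.3 CPM, and old values of 19.2, 22.4 and 26.8 CPM. All old mice lay within the young range. The log2 fold change was -0.014 (SE 0.0812, edgeR adjusted p = 0.912), and it was -0.038 within the first cull day and 0.016 within the second.

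Ccnd1, the gene of cyclin D1 (chr7:144929931-144939925), had young values with a lowest, median and highest of 13.0, 21.4 and 45.4 CPM and old values of 22.9, 32.4 and 71.9 CPM. The groups overlapped, with 6 young mice below every old one and 1 old mouse, 1187, above every young one. The log2 fold change was 0.53 (SE 0.217) and did not pass (edgeR adjusted p = 0.0696). On the second cull day alone it was 0.84 and passed (edgeR adjusted p = 0.00468), and on the first it was 0.25. The young mice of the first day had a mean of 31.3 ± 11.6 CPM and those of the second 17.6 ± 3.81 CPM (SD, n = 5 each). Without young mice 1184, 1186 and 1188 the log2 fold change was 0.83 and passed (edgeR adjusted p = 0.0155), and without mouse 1187 it was 0.36 (edgeR adjusted p = 0.190). With the other-cell score it was -0.050. Oraov1, on the opposite strand, overlaps Ccnd1 by 818 bases, and the strand setting of the counting is not stated, so reads of the pair may be mixed. Oraov1 itself had 126 to 598.5 counts and rose by 0.45 on the log2 scale (SE 0.160, edgeR adjusted p = 0.0387).

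Lmnb1, the gene of lamin B1 (chr18:56707813-56753424), did not fall with age in these libraries by the test. Young values had a lowest, median and highest of 2.69, 3.46 and 4.49 CPM, and old values of 2.24, 3.84 and 9.46 CPM. The groups overlapped at both ends, and the highest value was that of mouse 1187. The log2 fold change was 0.29 (SE 0.200, edgeR adjusted p = 0.286). It was 0.081 without mouse 1187. Day by day it was 0.56 on the first and -0.029 on the second. Of the 13 other lamina genes listed, none was called by edgeR or DESeq2, with 3 at an unadjusted p under 0.05, and limma-voom called 1 higher and 1 lower. Both counts lay below the shares over all genes, 30.9% and 42.3%. Lmna, the lamin A gene, was 41.9 CPM in young and 43.6 CPM in old mice.

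Of the 9 genes, 7 passed the count filter and 1 of those 7 was called, against 30.9% of the 12269 genes tested (3785 genes). Calls higher in old mice made up 16.3% of all genes tested and calls lower 14.5%, so the share of members called, 1 of 7 higher and 0 of 7 lower, was not above that of all genes. The median log2 fold change was 0.26 over the 7 tested members and -0.003 over all genes tested. The age difference was also tested for a difference between cull days. That interaction called 0% of the genes tested, with 799 genes at an unadjusted p under 0.05. None of the 7 members was among those 799, and the smallest unadjusted edgeR p was 0.134, for Lmnb1 (adjusted p = 0.852).

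**Figure D2:**
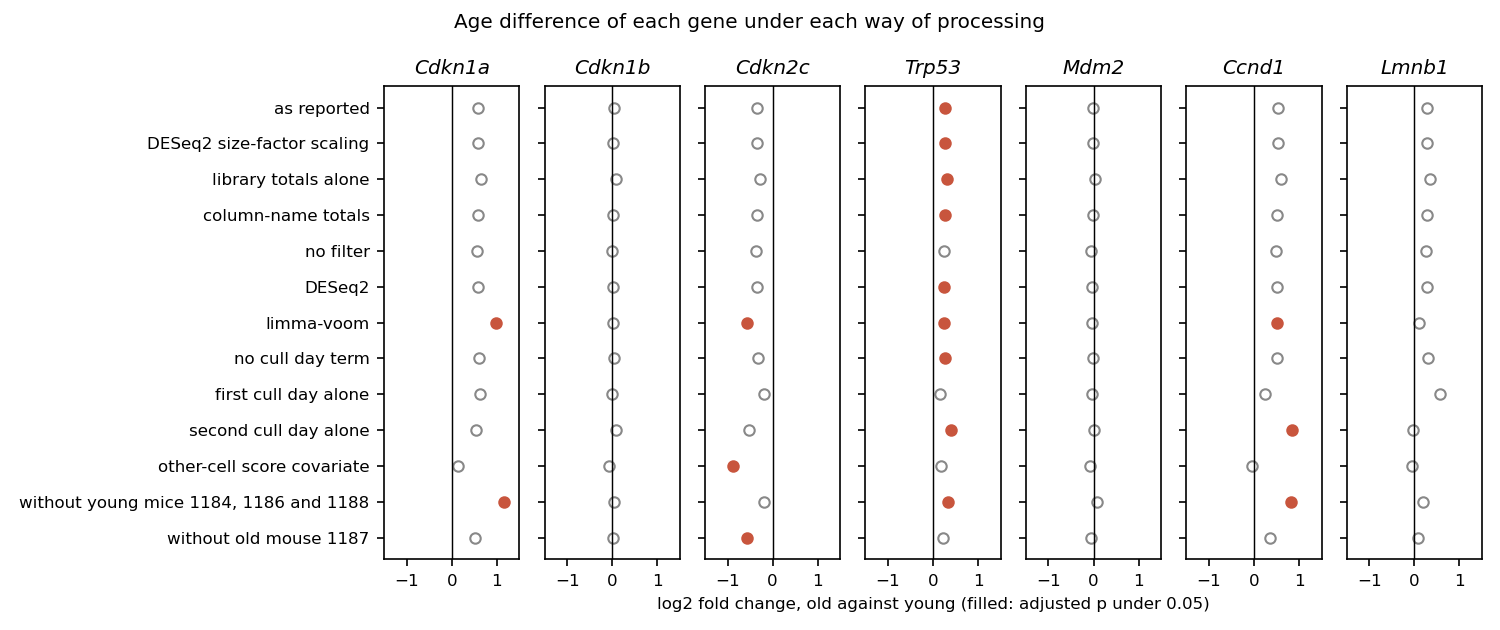
Log2 fold change of old against young (horizontal axes) for the 7 genes that passed the count filter, with rows for the reported fit and 12 other ways of processing; filled points passed an adjusted p of 0.05. Trp53 stays above 0 in every row but not always past the threshold, Cdkn1b and Mdm2 stay near 0, and Cdkn1a moves from 0.13 with the other-cell score to 1.16 without young mice 1184, 1186 and 1188.

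The transcriptional targets of p53 included genes that rose and genes that fell. The list held 38 genes apart from the members, of which 33 were tested: 7 rose, 2 fell and 24 did not pass, with a median log2 fold change of 0.10 against -0.003 over all genes. The share called, 9 of 33, was not above the 30.9% of all genes tested. Phlda3, which restrains the kinase AKT, rose most, by 2.10 on the log2 scale (SE 0.4005, edgeR adjusted p = 0.00116), from 0.333 ± 0.183 CPM over the 10 young mice to 1.44 ± 1.07 CPM over the 9 old ones (both SD). Old mice lay above every young mouse in 8 of 9 cases. A gene this low in young mice can pass the count filter through its old libraries, and such a gene can hardly be called lower. On the first cull day alone Phlda3 fell under the filter and was not tested. Eda2r, a receptor of the tumour necrosis factor receptor family, rose by 1.02 (edgeR adjusted p = 0.0139), from 0.936 to 1.92 CPM. Gdf15, a secreted stress hormone, rose by 0.80 (edgeR adjusted p = 0.00766), from 20.5 to 34.2 CPM. Plk2, a kinase induced by stress, rose by 0.71 (edgeR adjusted p = 0.00109), from 8.78 to 14.0 CPM. Bax, a driver of apoptosis, rose by 0.32 (edgeR adjusted p = 0.0158). The DNA repair gene Ddb2 and the ribonucleotide reductase subunit gene Rrm2b rose by 0.27 and 0.36. In the opposite direction, Plk3 fell by 1.20 (edgeR adjusted p = 0.0161), from 36.4 ± 28.8 to 15.8 ± 3.59 CPM, and Ei24 fell by 0.26 (edgeR adjusted p = 0.0219). Of the 3 targets with the highest CPM, Ei24 was therefore lower, while Rps27l had a log2 fold change of -0.14 and Perp of -0.00030 and neither passed.

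**Figure D3:**
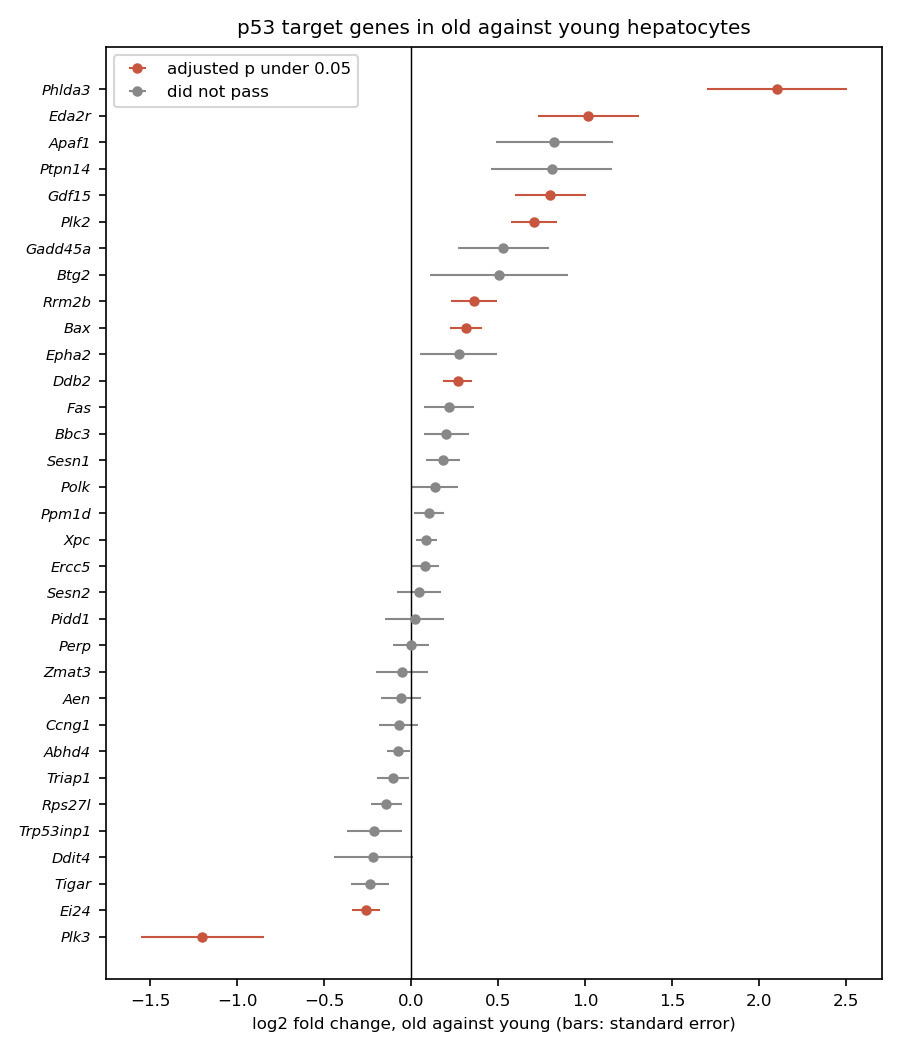
Log2 fold change of old against young with its standard error (horizontal axis) for the 33 tested p53 target genes, sorted by value; coloured points passed an adjusted p of 0.05 in the edgeR fit. The 7 genes that rose run from Ddb2 at 0.27 to Phlda3 at 2.10, and the 2 that fell are Ei24 and Plk3.

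The p53 target calls depended on the libraries, covariates and methods used. On the first cull day alone 2 targets were called and on the second 3, where 3.67% and 19.3% of all genes tested were called. After adjustment for the other-cell score, a fit that called 11.4% of all genes, 2 targets were called: Plk2, higher by 0.67 (edgeR adjusted p = 0.0166), and Plk3, lower with a log2 fold change of -1.52 (edgeR adjusted p = 0.0242). In that fit Phlda3 was higher by 0.97 and Gdf15 by 0.72 without passing. The fall of Plk3 leaned on young mouse 1186, without which it was -0.87 and did not pass (edgeR adjusted p = 0.0523). With limma-voom Plk3 was -0.81 and did not pass either (adjusted p = 0.0616). Rrm2b held its call in 5 of the 19 fits that left out a mouse each, and without mouse 1187 it was 0.28 (edgeR adjusted p = 0.0897). Nor did Rrm2b pass with DESeq2 (adjusted p = 0.0585), limma-voom (adjusted p = 0.0542) or no filter (edgeR adjusted p = 0.0814). Without young mice 1184, 1186 and 1188 neither Plk3 (-0.99, edgeR adjusted p = 0.0658), Ddb2 (0.26, edgeR adjusted p = 0.0666) nor Rrm2b (0.38, edgeR adjusted p = 0.0766) passed. Ei24 did not pass when libraries were scaled by their totals alone (-0.22, edgeR adjusted p = 0.0526). Macrophage and stellate cell markers rose in the same libraries, as given above, and their part in the rise of targets was not tested beyond that covariate.

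Across mice, the level of Cdkn1a went with that of the other p53 targets. Each mouse's log2 CPM was taken as its deviation from the mean of its age and cull day, which removes the means of age and day. Cdkn1a and the mean of the 33 tested targets had r = 0.73 (permutation p = 0.00137, adjusted over 4 relations 0.00548) and rho = 0.69 (permutation p = 0.00787, adjusted 0.0315) over 19 mice. Without the 2 mice farthest from the median of Cdkn1a, 1180 and 1186, r was 0.60. It was 0.83 within the first cull day (10 mice) and 0.49 within the second (9 mice, permutation p = 0.203), and 0.81 both among young and among old mice. The relations of Cdkn1a with Ccnd1 (r = 0.48, adjusted permutation p = 0.117), Mdm2 (r = 0.36, adjusted permutation p = 0.319) and Trp53 (r = 0.19, adjusted permutation p = 0.403) did not pass. Their rho values were 0.42, 0.22 and 0.11. The genes most like Cdkn1a by the same deviations, among 8653 tested genes with a mean of at least 5 CPM, were Mppe1 (r = 0.89), Smarca4 (r = 0.87) and Lgals8 (r = 0.85). All of these values come from the same libraries and share their scaling.

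**Figure D4:**
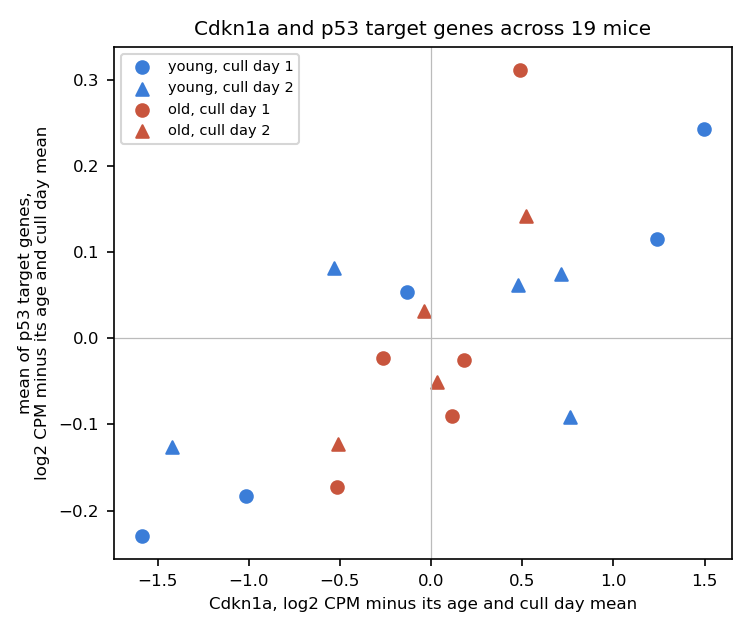
Cdkn1a (horizontal axis) against the mean of the 33 tested p53 target genes (vertical axis), both as log2 CPM minus the mean of the mouse's age and cull day; each point is 1 of 19 mice. The points run from lower left to upper right (r = 0.73), with young mice spread more widely along the Cdkn1a axis than old mice.

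The nearest genes of the other members, by r over the same 19 libraries, differed from gene to gene. For Cdkn1b they included Rapgef2 (0.82) and Pitpnc1 (0.78), and for Cdkn2c they were Ctsc (0.91), Grn (0.87) and Reep5 (0.86). For Trp53 they were Trim24 (0.84), Aprt (0.83) and Hnrnpk (0.82). For Mdm2 they were Ptpn2 (0.84), Birc2 (0.84) and Gadd45a (0.82), of which Gadd45a is also on the p53 target list. For Ccnd1 they were D6Wsu163e (0.89), its overlapping neighbour Oraov1 (0.88) and Ostm1 (0.86), and for Lmnb1 they were Trim21 (0.85), Bak1 (0.81) and Rpa1 (0.79). Among the 7 tested members the closest pair was Cdkn2c and Ccnd1 (r = 0.69), followed by Mdm2 and Ccnd1 (r = 0.60). Each r describes these 19 libraries and was picked as the highest of many.

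Of 18 listed regulators of p53, 14 were tested: 1 rose and 5 fell, with a median of -0.22. Over all genes tested, 16.3% were called higher and 14.5% lower. Usp10, a deubiquitinase that stabilises p53, fell from 68.3 ± 4.84 CPM over the 10 young mice to 48.2 ± 4.27 CPM over the 9 old ones (both SD). All 9 old mice lay below every young mouse, and the log2 fold change was -0.50 (SE 0.0601, edgeR adjusted p = 3.72e-05). The share of all tested genes whose groups separated in this way was not computed. Usp7, a deubiquitinase of both p53 and its inhibitor Mdm2, fell by 0.22 (edgeR adjusted p = 0.00944), and the acetyltransferase gene Kat5 rose by 0.29 (edgeR adjusted p = 0.00583). The other 3 that fell were the kinase genes Hipk2, by 1.00, Atr, by 0.37, and Atm, by 0.33. These 3 were chosen for naming after their values were seen. Hipk2 varied widely among young mice, at 8.16 ± 7.76 CPM against 3.89 ± 1.76 CPM in old mice (both SD). Without mouse 1187 the list had 4 calls, and without young mice 1184, 1186 and 1188 it had 5. Usp10, Kat5 and Usp7 were among them in both fits, so not all of Hipk2, Atr and Atm kept their calls. Usp10 passed in every setting tried, including -0.39 with the other-cell score (edgeR adjusted p = 0.00202). In that fit Kat5 was higher by 0.33 and passed (edgeR adjusted p = 0.0252), while Usp7 was -0.094 and did not (edgeR adjusted p = 0.333). Usp7 also lost its call when libraries were scaled by their totals alone (edgeR adjusted p = 0.0538).

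Downstream of the inhibitors, all 18 G1 cyclin, CDK and RB family genes were tested, and 1 rose and 1 fell (median -0.088), below the 30.9% called over all genes. Cdk4, the kinase that p16 inhibits, rose by 0.18 (edgeR adjusted p = 0.0410), from 22.2 to 25.1 CPM. E2f3, a transcription factor held by RB, fell by 0.28 (edgeR adjusted p = 0.0231), from 6.44 to 5.32 CPM. The call of Cdk4 held in 9 of 19 fits without a mouse each, and that of E2f3 in 18, the exception being young mouse 1188. Neither passed without young mice 1184, 1186 and 1188 (edgeR adjusted p = 0.0800 for Cdk4 and 0.0651 for E2f3), and without mouse 1187 Cdk4 did not pass either (edgeR adjusted p = 0.0936). With the other-cell score neither passed, at 0.098 for Cdk4 (edgeR adjusted p = 0.443) and -0.33 for E2f3 (edgeR adjusted p = 0.0676). Of 18 proliferation genes 15 were tested and 2 rose, against 16.3% called higher over all genes. The median log2 fold change of the 15 was 0.59, against -0.003 over all genes. Top2a, which untangles replicated DNA, rose by 1.64 (edgeR adjusted p = 0.0195) and the replication helicase gene Mcm3 by 0.79 (edgeR adjusted p = 0.0312). Without mouse 1187 Top2a was higher by 1.01 (edgeR adjusted p = 0.0436) and Mcm3 by 0.47, no longer past the test (edgeR adjusted p = 0.0713). Without young mice 1184, 1186 and 1188 Top2a was higher by 1.67 and did not pass (edgeR adjusted p = 0.0734). With the other-cell score their log2 fold changes were 0.11 and -0.067.

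Polycomb complexes hold the Cdkn2a locus silent in many cells. Of 17 genes listed as polycomb members or INK4 locus regulators, all were tested, 4 rose and 1 fell (median 0.085), close to the 30.9% called over all genes. Cbx7, a polycomb subunit, rose by 0.55 (edgeR adjusted p = 0.00278), from 4.92 to 7.18 CPM. Ets1, a transcription factor that activates Cdkn2a in culture, rose by 0.85 (edgeR adjusted p = 0.00288), from 9.82 to 17.6 CPM. Phc2, another polycomb subunit, rose by 0.22 (edgeR adjusted p = 0.0117), and did not pass without young mice 1184, 1186 and 1188 (0.19, edgeR adjusted p = 0.0614) or with the other-cell score (0.15, edgeR adjusted p = 0.202). The other gene that rose was Id1, by 1.20, and the gene that fell was Bmi1, a polycomb subunit that represses Cdkn2a, by 0.26 (edgeR adjusted p = 0.0258). Both were chosen for naming after their values were seen. Without young mice 1184, 1186 and 1188 Bmi1 was -0.13 and did not pass (edgeR adjusted p = 0.229). Bmi1 also lost its call with library totals alone (-0.22, edgeR adjusted p = 0.0792) and with no cull day term (-0.26, edgeR adjusted p = 0.0621). With the other-cell score Cbx7 was higher by 0.71 (edgeR adjusted p = 0.00274), whereas Ets1 was higher by 0.23 and did not pass.

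Secreted factors linked to senescence were mostly low. Of 23 listed genes 13 were tested, and 8 rose and 0 fell, with a median log2 fold change of 1.29. Over all genes tested 16.3% were called higher and the median was -0.003. Genes low in young mice, such as Ccl2, can pass the count filter through their old libraries. Such genes can hardly be called lower, so 8 against 0 is not an even balance of directions. Timp2, an inhibitor of matrix proteases, rose by 1.88 (edgeR adjusted p = 0.00103), from 1.70 to 6.56 CPM. Igfbp3, a binding protein of insulin-like growth factors, rose by 2.54 (edgeR adjusted p = 0.00128), from 1.83 to 10.8 CPM. Ccl2, a chemokine that attracts monocytes, rose by 3.12 (edgeR adjusted p = 0.00278), from 0.459 to 4.07 CPM. Without old mouse 1187 the rise was 1.79 for Igfbp3 and 2.18 for Ccl2, and both passed (edgeR adjusted p = 0.000141 and 0.00814). These genes are also expressed by other liver cells, whose stellate and macrophage markers all rose in the same edgeR fit. After adjustment for the other-cell score, where 11.4% of all genes were called, 3 of the 13 were, among them Timp2, higher by 0.60 (edgeR adjusted p = 0.0199), and Igfbp3, higher by 0.90 (edgeR adjusted p = 0.0218). Ccl2 was higher by 0.98 in that fit and did not pass (edgeR adjusted p = 0.186).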

How the data were processed

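Poly(A) RNA of hepatocytes was sequenced in 19 libraries, 1 per mouse. The authors deposited 1 table of estimated counts per gene, made with HOMER over exons of RefSeq transcripts of mm10, per the file headers. STAR is named with HOMER in the submitters' processing notes, whose roles and versions are not given in the sources used here, nor are the strand setting or the treatment of reads with several matches. Libraries were stranded and paired-end, per the labels' protocols. Deposited counts came in steps of 0.5 (29.2% were not whole) and were rounded to whole counts for the tests, which had been planned for plain counts. Reads in genes made up 78.3% to 86.5% of the totals in the column names. Fractional counts are shown as deposited, and CPM used trimmed mean of M-values (TMM) scaling.

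Age was tested with edgeR 4.0.16 (R 4.3.3), by its quasi-likelihood test with cull day as a covariate, on the 12269 of 24537 genes that passed filterByExpr (minimum count 10), with Benjamini-Hochberg adjustment over all of them and a threshold of 0.05. Called means past that threshold. Genes under the filter were compared by exact permutation within cull days, and the Cdkn2a interval was exact (Clopper-Pearson). Relations across mice used 100000 permutations within age and cull day. On simulated data the edgeR step was tested before use. Alternatives were other scalings, no filter, DESeq2 1.42.0, limma-voom with sample weights (limma 3.58.1), other covariates, single cull days and left-out mice. For Cdkn2a and Cdkn2b, DESeq2, single cull days and the removal of the mice that stand apart were added after seeing the data.

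The members and gene lists were chosen with earlier results of these data known. Genes were named by a rule: all members, up to 6 called p53 targets and up to 3 called genes of each other list by smallest p, the 3 p53 targets with the highest CPM, and the 3 genes most like each tested member, of which 1 is not reported here. Ddb2, Rrm2b, Cdkn1c, Cdkn2d, Cdkn3, Lmna, Alb, Apoa1, Cps1, Tat, Hnf4a, Hipk2, Atr, Atm, Id1 and Bmi1 fall outside it and were chosen after their values were seen, or complete small counts. Promoter windows came from RefSeq (GRCm38.p6) and exons from GENCODE M21. Figures were drawn with matplotlib 3.10.9, and other steps used scipy 1.17.1, pandas 2.3.3 and numpy 2.4.6 under Python 3.11.15.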

Additional observations from a re-analysis of the deposited data

Results flagged for a closer look

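In old mouse 1187, 3 members stood far above the other 8 old mice. Cdkn2c was 5.60 CPM, with the next old mouse at 2.91 CPM. Ccnd1 was 71.9 CPM, with the next at 37.0 CPM, and Lmnb1 was 9.46 CPM, with the next at 5.26 CPM. In each case the gap to the nearest mouse took up more of the group's range than Dixon's 95% critical value allows. Values of the 9 members in both age groups make 18 groups, of which 3 stood out, and chance gives about 1 in 20. The same mouse had the highest other-cell score, 5.91, and the part of other cells in its levels was not tested.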

How the results depend on the processing

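No paired analysis was possible because the mouse numbers are not shared between ages. Against 1 member called in the reported fit, DESeq2 called 2 (Cdkn2a and Trp53), limma-voom 4 (Ccnd1, Cdkn1a and Trp53 higher, Cdkn2c lower), the first cull day 0, the second 2 and the fit without young mice 1184, 1186 and 1188 called 3. Where the number stayed at 1 the gene could differ: it was Cdkn2a with no filter, and Cdkn2c with the other-cell covariate or without mouse 1187. Leaving out each mouse gave 0 to 2 members, 7 to 10 p53 targets against 9, and 18 to 27 genes of the other lists against 23. It gave Cdkn2a differences of 0.317 to 0.393 CPM and Cdkn2b differences of 0.0896 to 0.159 CPM. The first and second cull days called 2 and 3 p53 targets, and the other-cell covariate 2. These 3 fits called 3.67%, 19.3% and 11.4% of all genes against 30.9%, so calls were fewer over all genes too. For the other lists together the first cull day called 3 and that covariate 11. The cause of these differences was not tested, except that single days hold fewer mice. With the covariate Mcm3 turned to -0.067. By list, against 6 p53 regulators called, library totals alone, no cull day term and the covariate each gave 3, the first day 1 and the second 2. Against 5 polycomb and locus regulators, no cull day term, the covariate and the fit without the 3 young mice each gave 3, and either day alone 1. Against 2 G1 genes, library totals and no cull day term gave 1, limma-voom 4, and the first day and the fit without the 3 young mice 0; the covariate gave 2, but neither Cdk4 nor E2f3, and Cdk4 also lost its call with DESeq2 (adjusted p = 0.0633), its size factors (0.0520) and no filter (0.107), where the count stayed at 2. Against 2 proliferation genes, no filter gave 4, DESeq2 5, the first day and the covariate 0, and the fits without the 3 young mice or without 1187 gave 1. Against 8 secreted factors, the first day gave 1 and the covariate 3, and limma-voom gave 2 lamina genes against 0. The relation of Cdkn1a with the p53 targets was r = 0.49 on the second day. That with Ccnd1 was r = 0.67 on the first day (permutation p = 0.0248) and 0.52 with levels in place of deviations (permutation p = 0.0206). Both p lay under the threshold that the reported relation missed, but they were not adjusted over the relations. Library totals moved the median log2 fold change of all genes from -0.003 to 0.041. Depth limits Cdkn2a and Cdkn2b most, with at most 13.5 counts per library.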
